A study of Brachypodium distachyon with 4 samples.

Results

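Among the rows of the count table of Brachypodium distachyon leaves are 815 loci whose identifiers begin with ENSRNA, the prefix that Ensembl gives to loci of non-coding RNA. The loci described here are the 105 of them that drew 20 or more reads summed over all 4 libraries, out of 35125 rows in the table. Of the other ENSRNA loci, 141 drew 1 to 19 reads and 569 drew none. Loci were thus chosen by their summed reads over both genotypes, without regard to the difference between genotypes, and the totals are given as a description.

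Leaf RNA was compared between the mutant jmj1-1, with 2 libraries, and the line Bd21-3, also with 2 libraries, and the labels give Bd21-3 as the line of the mutant too. Plants of both genotypes had 20 h of light and 4 h of darkness a day, and leaves were taken on day 17, at leaf stage 4 and zeitgeber time 10 h. Brachypodium is a small grass used as a model of the temperate cereals, and JMJ names belong to the JmjC-domain family, many of whose members remove methyl groups from histones. The sources used here do not say how the jmj1-1 allele was made, which locus of the table is JMJ1, whether plants were pooled or whether replicates are separate plants. The p-values therefore measure only the spread between these libraries, which may be technical. The edgeR fit also draws each locus's spread toward that of the other loci, so a p-value does not rest on that locus's replicates alone.

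Many non-coding RNAs are working parts of the machinery of gene expression. Transfer RNAs carry amino acids to the ribosome, ribosomal RNAs form its core, small nuclear RNAs build the spliceosome, small nucleolar RNAs guide the chemical modification of ribosomal RNA, the signal recognition particle RNA helps to send nascent proteins to membranes, and microRNA precursors give rise to short regulators of messenger RNA. Most of these RNAs carry no poly(A) tail when mature, and the labels name a stranded mRNA kit, a type of kit that enriches RNA with such a tail. A read count at such a locus need not follow the amount of the mature RNA in the cell.

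The table gives these loci by identifier alone. RefSeq's genes of the assembly Brachypodium_distachyon_v3.0 include 566 tRNA, 310 miRNA, 299 snoRNA, 161 rRNA and 86 snRNA genes, but 0 of the 815 ENSRNA identifiers and 0 of the BRADI identifiers, which name the remaining loci, matched them. No RNA class, position, length, sequence or function is therefore given to any locus, and the leaf label could not be checked against marker genes. Without lengths, the order of read totals is not an order of RNA amounts. Some non-coding RNA genes exist in near-identical copies, and others lie inside or beside protein genes, so reads may have been split between copies or drawn from neighbours. The sources used here do not give the counting options that would decide this.

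The libraries were of similar depth. The jmj1-1 libraries held 16089629 and 13825916 counted reads, and the Bd21-3 libraries 16520046 and 16130508. Levels are given as reads per 1000000 counted reads (CPM), scaled with trimmed-mean (TMM) factors between 0.981 and 1.02. Read detection was sparse at ENSRNA loci, of which 12.9% reached 20 reads, against 65.7% of BRADI loci. The 105 loci all had at least 1 read in every library.

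As a class, the ENSRNA loci had a smaller mean share of reads in jmj1-1, with a difference close to that between libraries of the same genotype. They held 0.367% and 0.449% of counted reads in jmj1-1 replicates 1 and 2, against 0.454% and 0.513% in Bd21-3 replicates 1 and 2. Both jmj1-1 shares lay below both Bd21-3 shares, with jmj1-1 replicate 2 just under Bd21-3 replicate 1. The means were 0.408% ± 0.058 in jmj1-1 and 0.483% ± 0.042 in Bd21-3 (SD, n = 2 each), a ratio of 0.844. With 2 libraries a side, an exact two-sided permutation test cannot give a p below 0.333. In leaf tissue sequenced in bulk, fewer cells of a type and less RNA per cell cannot be told apart.

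**Figure D1:**
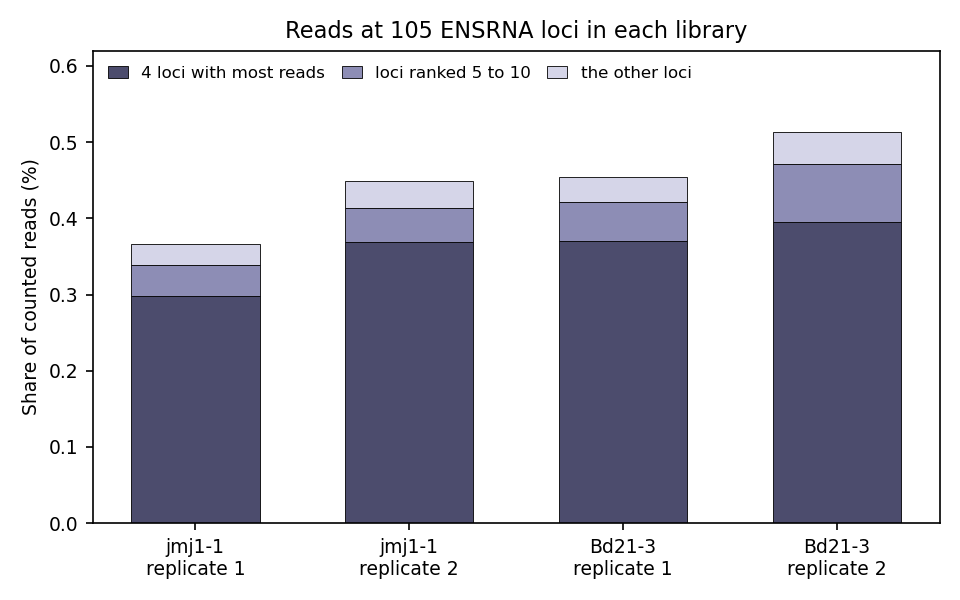
Bars give the share of counted reads, in percent, that fell on the 105 ENSRNA loci in each of the 4 libraries, split into the 4 loci with most reads, those ranked 5 to 10 and the others. The jmj1-1 libraries stand at 0.367% and 0.449% and the Bd21-3 libraries at 0.454% and 0.513%, and the 4 leading loci make up most of every bar.

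A handful of loci carried most of the reads of the class. ENSRNA049474488, ENSRNA049998181, ENSRNA049474536 and ENSRNA049996246 together held 81.2% and 82.1% of the class's reads in the jmj1-1 libraries and 81.6% and 77.0% in the Bd21-3 libraries. The 10 loci with most reads held between 92.0% and 92.9% in every library. Without the 4 leading loci, the class took 0.0689% and 0.0805% of counted reads in jmj1-1 and 0.0837% and 0.118% in Bd21-3. The jmj1-1 shares again lay below the Bd21-3 shares, and Bd21-3 replicate 2 stood above the other libraries. The ratio of mean shares, jmj1-1 over Bd21-3, was 0.740 without the 4 leading loci and 0.871 at those 4. The 710 ENSRNA loci below the threshold took 0.00150% and 0.00159% in jmj1-1 and 0.00142% and 0.00145% in Bd21-3, so there the jmj1-1 libraries were the higher pair.

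Per locus, the change in jmj1-1 was downward among the well-read loci. Each locus was tested with edgeR's quasi-likelihood F-test, fitted over all 21456 loci of the table with enough reads and adjusted by the Benjamini-Hochberg method over all of them, with a threshold of 0.05. A filter for about 10 reads in 2 or more libraries left 80 of the 105 loci in the test, and 59 of these met it in all 4 libraries. Another 4 passed through jmj1-1 alone and 1 through Bd21-3 alone, and none of these was called in this fit. In jmj1-1, 16 loci fell and 1 rose, 17 called of 80, where 13.9% of all tested loci were called, 7.75% lower and 6.13% higher. The median log2 change was -0.23 over the 80 loci and 0.0033 over all tested loci. Of the 80 loci, 53 had a negative and 27 a positive log2 change, where 49.4% of all tested loci had a negative one. An unadjusted p under 0.05 was found at 32 of the 80, or 40.0%, against 24.2% of all tested loci.

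The number of calls depended on the tool, on the filter and on single libraries. DESeq2 called 6 of the 80 loci, 5 lower and 1 higher, where it called 5.98% of all loci. Without the expression filter 9 of the 105 were called, 8 of them lower, where 6.29% of all loci were called. Without Bd21-3 replicate 1 there were 27 calls, 24 of them lower, where 11.4% of all loci were called. Without jmj1-1 replicate 2 there were 24 calls, 21 lower, over a share of 8.96% of all loci. Both fits made more calls in the class than the full data, and every such fit assumes that the lone library varies like those of the other genotype. Without Bd21-3 replicate 2 there were 15 calls, 12 lower, over a share of 12.9%. Without jmj1-1 replicate 1 there were 12 calls, 10 lower, over a share of 8.17%. RLE, upper quartile and library-total scaling, the stricter filter, the likelihood ratio test, the older quasi-likelihood method, limma-voom and the replicate block called 16 to 20 ENSRNA loci, and scaling on the ENSRNA loci themselves, described further on, called 4. All loci were called at 13.9% with RLE scaling, 13.7% with upper quartile scaling and in the likelihood ratio test, 13.8% in the older quasi-likelihood method, 13.5% in limma-voom, 14.6% with the replicate block, 14.8% with library totals and 15.4% with the stricter filter. The median log2 change was -0.03 without Bd21-3 replicate 2, -0.12 without jmj1-1 replicate 1, -0.35 without jmj1-1 replicate 2 and -0.37 without Bd21-3 replicate 1. These 4 fits tested 89 to 94 of the 105 loci in place of 80, since the filter then asked for fewer libraries. ENSRNA049997969, not tested in the full data, entered those that kept jmj1-1 replicate 2, where it had 73 reads, against 4 to 8 elsewhere. Calls in these fits are thus not like for like with those of the full data.

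Calls gathered at the loci with most reads. Of 17 loci with 1000 or more reads over the 4 libraries, 13 fell and 0 rose, where 20.9% of all tested loci at that depth were called, 13.5% lower and 7.35% higher. Of 26 loci with 100 to 999 reads, 3 fell and 1 rose, where 7.95% of all tested loci at that depth were called, 3.19% lower and 4.76% higher. Of 37 tested loci with 20 to 99 reads, edgeR's quasi-likelihood test called 0, where 8.28% of all tested loci at that depth were called, 1.89% lower and 6.39% higher. In that last group 5 of the 37 loci, or 13.5%, had an unadjusted p under 0.05, against 17.1% of all tested loci at that depth, and DESeq2 called none of the 37. Median log2 changes were -0.39, -0.29 and -0.08 in the groups from most to fewest reads. Over all tested loci at the same depths they were -0.0074, 0.014 and 0.072. These depth groups were set after the values were seen.

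**Figure D2:**
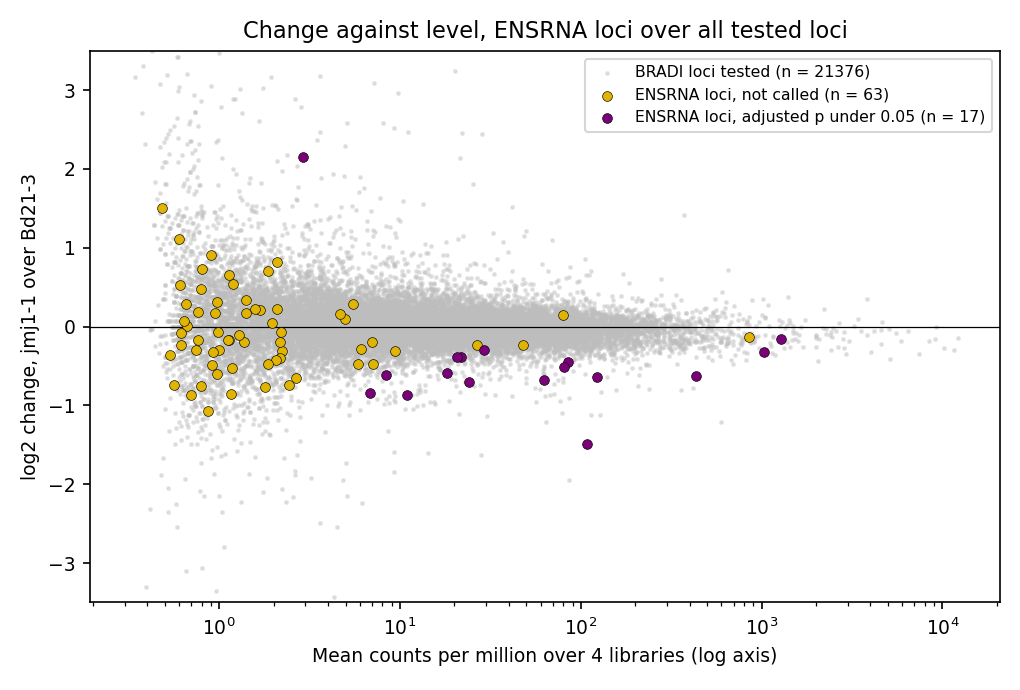
Each point is a tested locus, with its mean CPM over the 4 libraries on a log axis and its log2 change of jmj1-1 over Bd21-3. The 17 called ENSRNA loci (purple) lie mostly below 0 at the higher levels, the 63 tested but not called (yellow) lie on both sides of it, and 89 of the 21376 BRADI loci (grey) fall beyond the axis limit of 3.5.

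The loci varied together, with replicate 2 above replicate 1 at most of them in both genotypes. Among the 17 loci with 1000 or more reads, replicate 2 was above replicate 1 at 16 loci in jmj1-1 and at 16 in Bd21-3. Their median log2 difference between replicate 2 and replicate 1 was 0.35 in jmj1-1 and 0.32 in Bd21-3, beside a median log2 change between genotypes of -0.39. Over all tested loci at that depth the medians of replicate 2 over replicate 1 were -0.0027 in jmj1-1 and -0.0036 in Bd21-3. At these loci the median difference between replicates was thus about as large as that between genotypes, while over all loci of like depth it was near 0.

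The same held when loci with fewer reads were included. Of the 43 loci with 100 or more reads, replicate 2 was the higher in both genotypes at 31, or 72.1%, against 23.9% of all 18920 tested loci at that depth. Across these 43 loci the log2 difference between replicates in jmj1-1 correlated with that in Bd21-3 at Pearson's r of 0.31 and Spearman's rho of 0.38, a description in which loci share the same libraries. Over all 80 tested ENSRNA loci, taken on edgeR's log2 CPM, Pearson's r was 0.22 and Spearman's rho 0.28. By that same measure they were -0.018 and -0.0074 over all 21456 tested loci. The size of the typical replicate difference was also larger in the class. At 1000 or more reads, the median absolute log2 difference was 0.35 in jmj1-1 and 0.32 in Bd21-3, against 0.063 and 0.070 over all tested loci at that depth. Since edgeR draws the spread of a locus toward that of all tested loci, its p-values may understate the spread at ENSRNA loci. The part of this shared replicate difference in the falls was not tested.

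**Figure D3:**
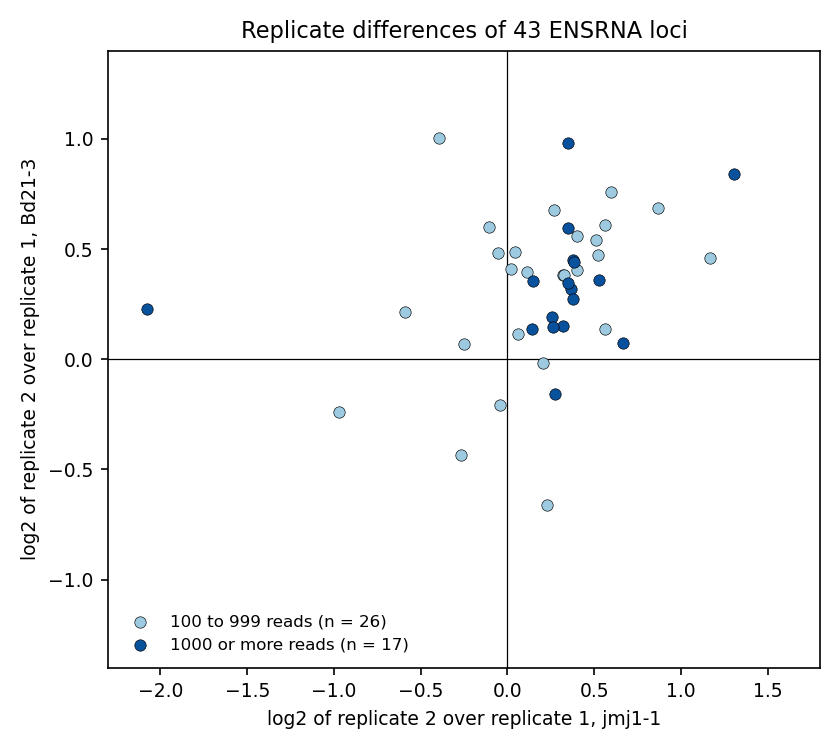
Each point is 1 of the 43 ENSRNA loci with 100 or more reads, with the log2 of replicate 2 over replicate 1 in jmj1-1 on the horizontal axis and in Bd21-3 on the vertical axis. Most points, 31 of 43, lie at the upper right, where replicate 2 was the higher in both genotypes.

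The locus with the most reads, ENSRNA049474488, showed how small the shift could be. It had 1076 and 1341 CPM in the jmj1-1 libraries, against 1280 and 1423 CPM in the Bd21-3 libraries, and it ranked 67 in the table by reads. The groups overlapped, since jmj1-1 replicate 2 exceeded Bd21-3 replicate 1. Its log2 change of -0.16 (SE 0.047) passed edgeR's test at adjusted p = 0.012. The call was lost without jmj1-1 replicate 1 (log2 change -0.01, edgeR adjusted p = 0.95), without Bd21-3 replicate 2 (-0.09, adjusted p = 0.077), with library totals in place of TMM (-0.11, adjusted p = 0.10) and in DESeq2 (adjusted p = 0.89). Over all alternatives its adjusted p ranged from 1.06e-10 to 0.95.

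Its neighbours in read number differed in how far they moved. ENSRNA049998181 had 830.4 and 1002 CPM in jmj1-1, against 1203 and 1079 CPM in Bd21-3. It fell by 0.32 on the log2 scale (SE 0.045, edgeR adjusted p = 1.89e-07), with the groups apart. Of the 16 loci that fell, it was the 1 at which Bd21-3 replicate 2 was below replicate 1. ENSRNA049474536 had 736.9 and 881.7 CPM in jmj1-1, against 825.4 and 942.4 CPM in Bd21-3. Its groups overlapped, and its log2 change of -0.13 did not pass the test (SE 0.046, edgeR adjusted p = 0.055), though it passed on all libraries in limma-voom (-0.13, adjusted p = 0.041) and with the replicate block (-0.13, adjusted p = 0.0064). It also passed without Bd21-3 replicate 1 (-0.22, adjusted p = 2.52e-08) and without jmj1-1 replicate 2 (-0.26, adjusted p = 6.45e-05). ENSRNA049996246 had 296.5 and 381.4 CPM in jmj1-1, against 466.7 and 581.8 CPM in Bd21-3. Both mutant libraries were lower than both of the other line, and it fell by 0.63 on the log2 scale (SE 0.059, edgeR adjusted p = 5.38e-13). DESeq2 gave the same locus adjusted p = 0.11, and ENSRNA049998181 adjusted p = 0.34.

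**Figure D4:**
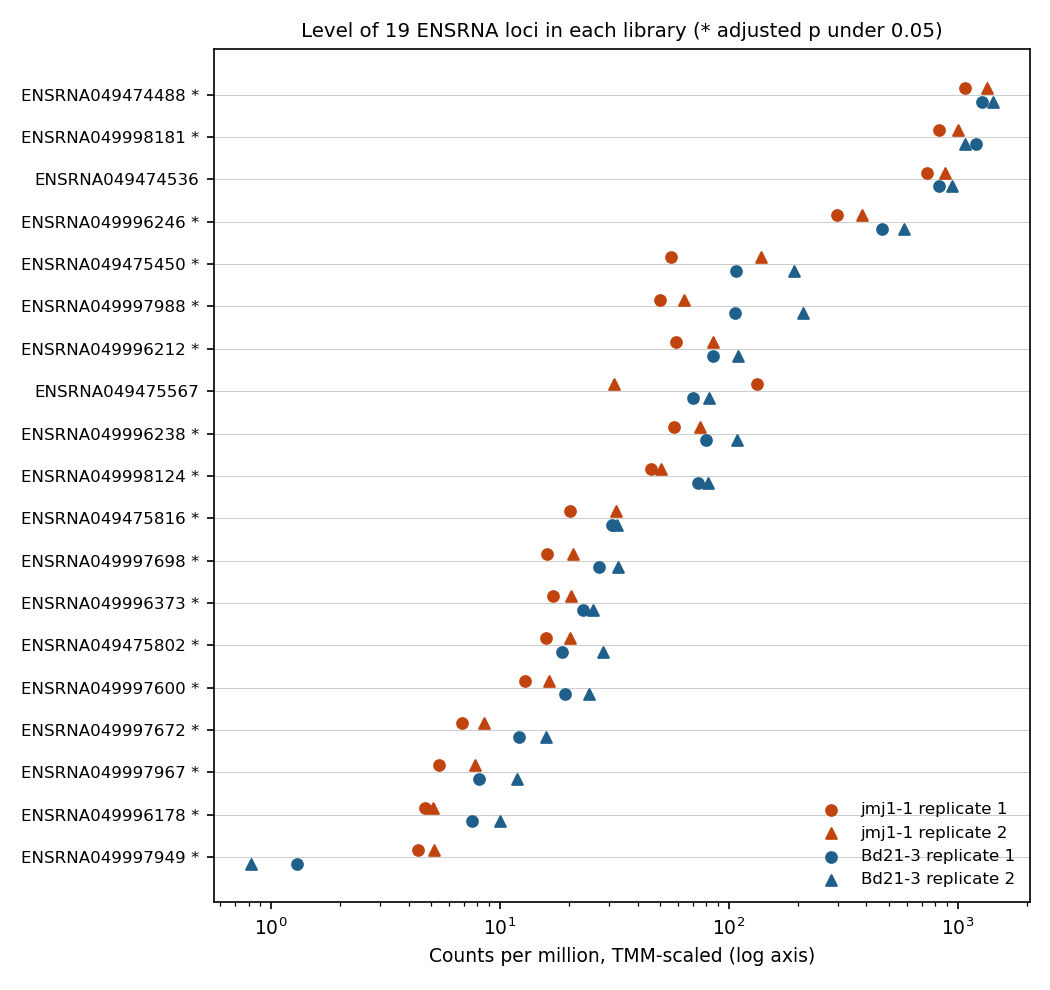
The level of 19 ENSRNA loci in CPM, on a log axis, is shown for jmj1-1 (orange, upper row of each pair) and Bd21-3 (blue, lower row), with circles for replicate 1 and triangles for replicate 2. They are the 10 loci with most reads and every called locus, marked with an asterisk. Most called loci sit to the left in jmj1-1, ENSRNA049997949 sits to the right, and the triangles lie mostly to the right of the circles within a genotype.

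Among the tested loci, the steepest fall was at ENSRNA049997988. It had 50.3 and 64.1 CPM in jmj1-1, against 107.1 and 211.7 CPM in Bd21-3. The groups were apart, although the Bd21-3 libraries themselves differed 1.98-fold. It averaged 57.2 ± 9.7 CPM in jmj1-1 and 159.4 ± 74 CPM in Bd21-3 (SD, n = 2 each), a fall of 1.48 on the log2 scale (SE 0.12, edgeR adjusted p = 9.48e-16). Among all tested loci, 0.564% were called and lower by 2-fold or more. Its log2 change was -0.91 without Bd21-3 replicate 2 and -1.90 without Bd21-3 replicate 1, and it was called in both fits. DESeq2 placed it just outside the threshold (adjusted p = 0.053).

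Among the rest of the 10 loci with most reads, ENSRNA049998124 was the steadiest. It had 45.9 and 50.6 CPM in jmj1-1, against 73.5 and 80.9 CPM in Bd21-3. Replicates differed 1.10-fold in each genotype, while the genotypes differed 1.60-fold, a log2 change of -0.68 (SE 0.064, edgeR adjusted p = 5.40e-13). It stayed called under each left-out library and in DESeq2 (adjusted p = 9.99e-11). ENSRNA049996238 had 57.7 and 75.1 CPM in jmj1-1 and 79.7 and 109.1 CPM in Bd21-3, a log2 change of -0.51 (SE 0.079, edgeR adjusted p = 9.57e-07). ENSRNA049996212 had 59.0 and 85.2 CPM in jmj1-1 and 85.6 and 109.6 CPM in Bd21-3, a log2 change of -0.44 (SE 0.080, edgeR adjusted p = 2.51e-05). At this locus jmj1-1 replicate 2 came within 1 CPM of Bd21-3 replicate 1, and the call was lost without jmj1-1 replicate 1 (-0.20, adjusted p = 0.092).

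Replicates differed more than genotypes at ENSRNA049475450 and ENSRNA049475567. ENSRNA049475450 had 55.9 and 138.1 CPM in jmj1-1, against 107.3 and 192.0 CPM in Bd21-3. Replicates of jmj1-1 differed 2.47-fold and those of Bd21-3 1.79-fold, and the groups overlapped. The locus was called lower all the same (log2 change -0.64, SE 0.15, edgeR adjusted p = 9.51e-04). Its change was -0.12 without jmj1-1 replicate 1 (adjusted p = 0.37), -0.17 without Bd21-3 replicate 2, -1.01 without Bd21-3 replicate 1 and -1.42 without jmj1-1 replicate 2, and DESeq2 gave adjusted p = 0.93.

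ENSRNA049475567 turned with the library left out. It had 133.6 and 31.7 CPM in jmj1-1, a 4.21-fold gap between replicates, against 69.9 and 81.8 CPM in Bd21-3. The jmj1-1 libraries lay on either side of the Bd21-3 libraries, and the log2 change of 0.15 did not pass the test (SE 0.18, edgeR adjusted p = 0.69). Without jmj1-1 replicate 1 it was -1.26 (adjusted p = 8.26e-39) and without jmj1-1 replicate 2 it was 0.82 (adjusted p = 2.43e-28). It was also 0.28 and called without Bd21-3 replicate 2 (adjusted p = 4.34e-04). The p-values with 1 jmj1-1 library left do not hold the gap between the jmj1-1 libraries. Of the 10 loci with most reads, it was the one at which replicate 1 of jmj1-1 was the higher.

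Below the 10 loci with most reads, 8 more fell. ENSRNA049997698 had 16.1 and 20.9 CPM in jmj1-1, against 27.1 and 32.7 CPM in Bd21-3 (log2 change -0.70, SE 0.10, edgeR adjusted p = 1.53e-07). ENSRNA049997672 had 6.87 and 8.57 CPM in jmj1-1, against 12.2 and 15.9 CPM in Bd21-3 (-0.87, SE 0.14, adjusted p = 4.25e-06). In both, the groups were well apart. ENSRNA049997600 had 12.9 and 16.4 CPM in jmj1-1, against 19.3 and 24.5 CPM in Bd21-3 (-0.59, SE 0.11, adjusted p = 6.95e-05). ENSRNA049996178 had 4.72 and 5.10 CPM in jmj1-1, against 7.60 and 9.98 CPM in Bd21-3 (-0.84, SE 0.18, adjusted p = 2.63e-04). With ENSRNA049998124, these are the 5 loci that DESeq2 also called lower, at adjusted p of 3.80e-04 for ENSRNA049997698, 0.0025 for ENSRNA049997672, 0.020 for ENSRNA049997600 and 0.027 for ENSRNA049996178.

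The other 4 of these falls were called with less margin. ENSRNA049996373 had 17.1 and 20.5 CPM in jmj1-1, against 23.2 and 25.7 CPM in Bd21-3 (log2 change -0.38, edgeR adjusted p = 0.0036). ENSRNA049997967 had 5.46 and 7.79 CPM in jmj1-1, against 8.15 and 11.9 CPM in Bd21-3 (-0.61, adjusted p = 0.0072). For both, the jmj1-1 libraries were the lower pair by a narrow gap. ENSRNA049475802 had 15.9 and 20.2 CPM in jmj1-1, against 18.7 and 28.3 CPM in Bd21-3 (-0.39, adjusted p = 0.016). ENSRNA049475816 had 20.3 and 32.2 CPM in jmj1-1, against 31.0 and 32.6 CPM in Bd21-3 (-0.29, adjusted p = 0.042). At ENSRNA049475802 and ENSRNA049475816 the groups overlapped. Each of the 4 lost its call in DESeq2 and without the expression filter, with all libraries in. Without jmj1-1 replicate 1, edgeR gave ENSRNA049996373 a log2 change of -0.25 (adjusted p = 0.24), ENSRNA049997967 -0.36 (0.30), ENSRNA049475802 -0.21 (0.36) and ENSRNA049475816 0.02 (0.96). Without Bd21-3 replicate 2, it gave ENSRNA049996373 -0.31 (adjusted p = 0.053), ENSRNA049997967 -0.32 (0.34), ENSRNA049475802 -0.06 (0.83) and ENSRNA049475816 -0.26 (0.060), so the size of the change at ENSRNA049996373 and ENSRNA049475816 was little altered.

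Set against their own replicates, the 16 falls divide in a simple way. In 12 of them both jmj1-1 libraries lay below both Bd21-3 libraries, and in 4 the groups overlapped, at ENSRNA049474488, ENSRNA049475450, ENSRNA049475816 and ENSRNA049475802. Among all 2978 called loci of the table, 19 had overlapping groups. In 11 of the 16 the log2 change was larger than the difference between replicates in either genotype. The test that picked these loci itself weighs change against spread, and the share over all called loci was not computed. The 11 are thus a description only. Replicate 2 was above replicate 1 in both genotypes at 15 of the 16. Over the 80 tested loci, both jmj1-1 libraries were the lower pair at 23 and the higher pair at 10, where the shares over all tested loci were 25.3% and 25.5%.

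The rise was at ENSRNA049997949, a locus with few reads. It had 72 and 73 reads in the jmj1-1 libraries, against 21 and 13 in the Bd21-3 libraries, or 4.41 and 5.17 CPM against 1.30 and 0.821 CPM. The groups were far apart. It averaged 4.79 ± 0.53 CPM in jmj1-1 and 1.06 ± 0.34 CPM in Bd21-3 (SD, n = 2 each), a 4.46-fold rise with a log2 change of 2.16 (SE 0.29, edgeR adjusted p = 4.11e-08). Among all tested loci, 1.46% were called and higher by 2-fold or more. The ratio of summed reads was 4.49 after scaling, with an exact 95% Clopper-Pearson interval of 3.07 to 6.72 that covers counting error only. The rise was called in each of the 15 alternative fits, DESeq2 included (adjusted p = 2.19e-05), with log2 changes between 1.87 and 2.52.

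Scaled against each other, fewer of the ENSRNA loci were called. Size factors taken from the tested ENSRNA loci alone, an alternative chosen after the replicate pattern was seen, put the median log2 change of these loci at 0.05 and that of all tested loci at 0.28, against -0.23 and 0.0033 with TMM. Such factors centre these loci on their own typical change by construction, so a fall shared by them cannot appear. The lower number of calls therefore decides nothing about a shared fall. With these factors 3.6% of all loci and 4 ENSRNA loci were called. ENSRNA049997949 was higher (log2 change 2.44, edgeR adjusted p = 9.89e-11) and ENSRNA049997988 was lower (-1.20, adjusted p = 2.87e-04). The other 2, ENSRNA049996336 (1.11, adjusted p = 0.026) and ENSRNA049997568 (1.78, adjusted p = 0.018), were not called with TMM scaling (0.82, adjusted p = 0.059, for ENSRNA049996336 and 1.50, adjusted p = 0.11, for ENSRNA049997568). ENSRNA049997568 had 12 and 10 reads in jmj1-1, against 7 and 1 in Bd21-3. It entered the test through jmj1-1 alone, where it is the higher, so its call is no support for a difference. Of the 16 falls, 15 kept a negative log2 change under this scaling, and ENSRNA049474488 turned to 0.11.

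The 25 loci that the filter left out had 20 to 92 reads each. Their median ratio of summed reads, jmj1-1 over Bd21-3 after scaling, was 0.956, with 15 ratios below 1 and 10 above. The exact 95% interval of counting error left out 1 at 5 of the 25, or 20.0%, and at 14.8% of all 1179 untested loci of the table with reads in the same range. These intervals are not adjusted for the number of loci. ENSRNA049476713 had 2 and 2 reads in jmj1-1, against 12 and 9 in Bd21-3 (ratio 0.200, interval 0.050 to 0.594). ENSRNA049996038 had 3 and 4 reads in jmj1-1, against 9 and 11 in Bd21-3 (0.368, 0.132 to 0.906). At both, each jmj1-1 library was below each Bd21-3 library. The ratio at ENSRNA049996038 was 0.453 without jmj1-1 replicate 1 and 0.414 without Bd21-3 replicate 2. Its interval included 1 in these cases, though not without either of the other libraries.

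The remaining 3 of the 5 leaned on 1 jmj1-1 library. ENSRNA049997969 had 4 and 73 reads in jmj1-1, against 8 and 7 in Bd21-3 (ratio 5.40, interval 3.08 to 10.1), and without jmj1-1 replicate 2 the ratio was 0.523. ENSRNA049997019 had 3 and 13 reads in jmj1-1, against 4 and 2 in Bd21-3 (2.81, 1.04 to 8.75), and the ratio was 0.981 without jmj1-1 replicate 2. ENSRNA049997688 had 15 and 3 reads in jmj1-1, against 3 and 1 in Bd21-3 (4.73, 1.56 to 19.2), and the ratio was 1.70 without jmj1-1 replicate 1. The Bd21-3 libraries mattered as well at the last 2 of these loci. At ENSRNA049997019 the ratio was 4.16 without Bd21-3 replicate 1 and 2.13 without Bd21-3 replicate 2, and the interval included 1 in both cases. At ENSRNA049997688 the ratio was 3.19 without Bd21-3 replicate 2, and the interval included 1. None of these intervals holds the spread between replicates.

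At the threshold of 20 reads, 2 loci on each side are given as examples, taken by total and then by identifier order. No test was made of them, and they show no pattern of either side. Just inside it, ENSRNA049998189 had 2 and 7 reads in jmj1-1 and 4 and 7 in Bd21-3, and ENSRNA049997613 had 4 and 7 in jmj1-1 and 6 and 4 in Bd21-3. Just outside it were 4 loci with 19 reads, among them ENSRNA049474026 with 0 and 4 reads in jmj1-1 and 7 and 8 in Bd21-3, and ENSRNA049996561 with 7 and 8 in jmj1-1 and 3 and 1 in Bd21-3.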

How the data were processed

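The authors deposited 1 table of whole-number read counts, 1 column per library. Per the submitters' processing notes, the tools were featureCounts, HISAT2, cutadapt and SAMtools, in versions not listed. The sources used here do not give the genome build, annotation, strand setting or treatment of multiply matching reads. Columns were matched to samples by title. Counts were fitted in R 4.3.3 with edgeR 4.0.16 (filterByExpr by genotype, TMM, quasi-likelihood F-test with legacy off, two-sided, Benjamini-Hochberg over 21456 loci), and the test was checked on simulated counts. Standard errors are the absolute log2 change divided by the square root of F. Log2 differences between replicates over groups of loci used a pseudocount of 0.1 CPM. Alternatives were other scalings, filters and membership thresholds, DESeq2 1.42.0, limma-voom (limma 3.58.1), edgeR's likelihood ratio test, a replicate block, each library left out and, chosen after seeing the data, size factors from the ENSRNA loci and the older quasi-likelihood method. The loci and the tests were chosen with earlier results of these data known. Named loci were the 10 with most reads, every called locus, 2 on each side of the threshold of 20 reads, and untested loci whose interval left out 1. ENSRNA049996336 and ENSRNA049997568 were named after their values were seen.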

Additional observations from a re-analysis of the deposited data

How the results depend on the processing

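Of the 105 ENSRNA loci, 80 were tested. The edgeR test called 17 of the 80, 16 lower and 1 higher in jmj1-1, where 13.9% of all tested loci were called. The median log2 change of the 80 was -0.23. The called loci numbered between 14 and 20, and the lower ones between 13 and 19, under RLE, upper quartile and total scaling, the stricter filter, limma-voom, the likelihood ratio test, the older quasi-likelihood method, an adjusted p of 0.01, membership at 10 or 50 reads and the replicate block. In these fits 13.5% to 15.4% of all tested loci were called. At an adjusted p of 0.01, with 14 ENSRNA loci called, the share of all loci was not computed. Loci called higher numbered 2 with library totals, with the filter at a minimum count of 30 and in the likelihood ratio test. Without the expression filter 9 of the 105 were called and 8 were lower, where 6.29% of all loci were called. DESeq2 called 6 of the 80, with 5 lower, where it called 5.98% of all loci. Size factors from the ENSRNA loci alone called 4 of the 80, with 1 lower and 3 higher, at a median of 0.0478, where 3.6% of all loci were called. They centre these loci on their own typical change by construction, so a shared fall cannot appear. Under those factors ENSRNA049474488 turned to 0.107 and ENSRNA049474536 to 0.145. With single libraries left out, calls ranged from 12 to 27, lower ones from 10 to 24 and higher ones from 2 to 3. The shares of all loci called with single libraries left out are given above. The cause of these differences was not tested.

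ENSRNA049475567 turned to -0.161 in limma-voom and to -0.0237 with the replicate block, and ranged from -1.26 to 0.819 with 1 library left out. ENSRNA049475816 ranged from -0.646 to 0.0182, the ratio of summed reads at ENSRNA049997969 from 0.523 to 11.0 and that at ENSRNA049997019 from 0.981 to 4.91. The replicate block called 20 loci, among them the 17. No label pairs the libraries beyond a shared number, and over all tested loci the replicate differences of the genotypes correlated at -0.018. Of the 17 calls, 10 held with each library left out, 6 under every alternative other than size factors from the ENSRNA loci alone, and 1, ENSRNA049997949, in all 15 fits. How many of all called loci held in the same way was not computed, so these counts have no share of the whole beside them. Without the locus with most reads the class took 0.285% of reads in jmj1-1 and 0.351% in Bd21-3, and without the 4 leading loci, chosen after seeing the data, 0.0747% and 0.101%. Of the 62 loci with 20 to 99 reads, 25 were left untested by the filter for about 10 reads in 2 or more libraries. edgeR called 0 of the other 37, with 5 at an unadjusted p under 0.05, where 8.28% of all tested loci at that depth were called.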
